A study of Mus musculus with 30 samples.

Results

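The 46 genes described here encode the Sm proteins and core factors of the spliceosome, and they were taken by symbol from a list. All 46 are present among the 20730 gene symbols that the 3 deposited count tables have in common. A gene counted as a member in a population where its mean over the 6 libraries was 1 CPM or more, CPM being the count scaled to the depth of its library. By this rule 43 genes were members in thymus double-positive (DP) cells, 43 in thymus CD4 single-positive (SP) cells, 46 in thymus CD8 SP cells, 45 in spleen CD4 cells and 45 in spleen CD8 cells. Sf1, Snrnp40 and Srsf1 fell out in thymus DP and CD4 SP, where their means ran from 0 to 0.123 CPM. Smn1 fell out in the spleen, at 0.479 CPM in CD4 and 0.809 CPM in CD8 cells. Just inside the limit lay Smn1 at 1.29 CPM in thymus CD8 SP and, in spleen CD8, Snrnp40 at 1.55 CPM and Snrpc at 1.77 CPM.

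RNA came from T cells sorted by flow cytometry from C57BL/6 mice. Control mice (WT) were wild type, and knockout mice (CKO) had the genotype CD4-Cre+ PRMT5fl/fl, in which Cre under control of the Cd4 gene deletes Prmt5 from the DP stage onward. There were 3 mice per genotype in each of the 5 populations, 30 libraries in all. There was no Cre-only group, and what Cre itself does cannot be told apart from what the loss of Prmt5 does. Age is not given in the sources used here. The labels used here give no sex. All 12 spleen libraries had over 100 CPM of Xist, whereas in thymus CD8 SP all 3 WT libraries and 1 CKO library had over 100 CPM of the Y-linked gene Ddx3y and 2 CKO libraries had over 100 CPM of Xist. In thymus DP and in thymus CD4 SP, 1 WT and 1 CKO library had over 100 CPM of Ddx3y, and no value of Xist is given for either. The part of sex in the thymus values was not tested. Thymus DP and CD4 SP cells came from mice of the same numbers, as did spleen CD4 and CD8 cells.

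The spliceosome removes introns from pre-mRNA. Its small nuclear ribonucleoproteins (snRNPs) are built on a ring of Sm proteins around each small nuclear RNA. The U1 snRNP marks the 5′ splice site, the U2 snRNP with SF1 and the U2AF pair marks the branch point and the 3′ splice site, and the tri-snRNP then brings in the U4, U5 and U6 RNAs, after which PRPF8 and the helicase SNRNP200 act at the catalytic core. SR proteins and hnRNPs bind the transcript and steer the choice of sites. PRMT5 methylates arginines symmetrically in the tails of SmB, SmD1 and SmD3 before the ring is assembled, and the genes of these proteins are Snrpb, Snrpd1 and Snrpd3.

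The shallowest library, of thymus CD4 SP, had 11865646 counts and the deepest, of thymus CD8 SP, 35353441. Prmt5 was lower in CKO in all 5 populations, with log2 fold changes of -0.97 and -0.87 in spleen CD4 and CD8 and of -1.09, -0.99 and -0.31 in the DP, CD4 SP and CD8 SP cells of the thymus. The thymus CD4 SP value did not pass (adjusted p = 0.958), and the others did (adjusted p from 1.09e-04 to 0.0450). The thymus CD8 SP call was lost without any 1 of its 6 libraries (adjusted p up to 0.164, edgeR) and with the replicate number as a block (0.0674), and the thymus DP call was lost with 12 libraries in the fit, while both kept their direction. In spleen CD4 Prmt5 had 43.7, 44.8 and 44.0 CPM in WT and 24.2, 19.1 and 24.3 CPM in CKO, and in spleen CD8 67, 61.1 and 64.7 against 35.0, 29.1 and 41.6 CPM. In the thymus it had 66.1, 59.9 and 69.7 against 31.1, 30.4 and 30.6 CPM in DP cells, 56.5, 63.0 and 67.9 against 43.5, 25.7 and 24.8 CPM in CD4 SP cells, and 150, 135 and 148 against 117, 117 and 115 CPM in CD8 SP cells, so the genotypes did not overlap in any population. Log2 fold changes compare CKO with WT and are printed ± their standard error, from edgeR's quasi-likelihood test with Benjamini-Hochberg adjustment over all genes tested in that population. Levels are CPM, given as mean ± SD over 3 libraries of a genotype. In bulk RNA, fewer cells of a type and less RNA per cell cannot be told apart.

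The plot of log2 fold changes by gene and population shows where the members differed between genotypes. Of 45 members in each spleen population 10 rose in CD4 and 8 in CD8, none fell there, and none passed in any of the 3 thymus populations. Of all genes tested, 8.53% rose and 5.63% fell in spleen CD4, and 9.83% rose and 6.22% fell in spleen CD8. In the thymus populations no more than 0.0805% of all genes passed in 1 direction. The genes that rose encode tri-snRNP proteins, subunits of the SF3B part of the U2 snRNP, U2AF1 and the SR proteins SRSF4 and SRSF7. None of the 7 Sm core genes passed in any population.

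**Figure D1:**
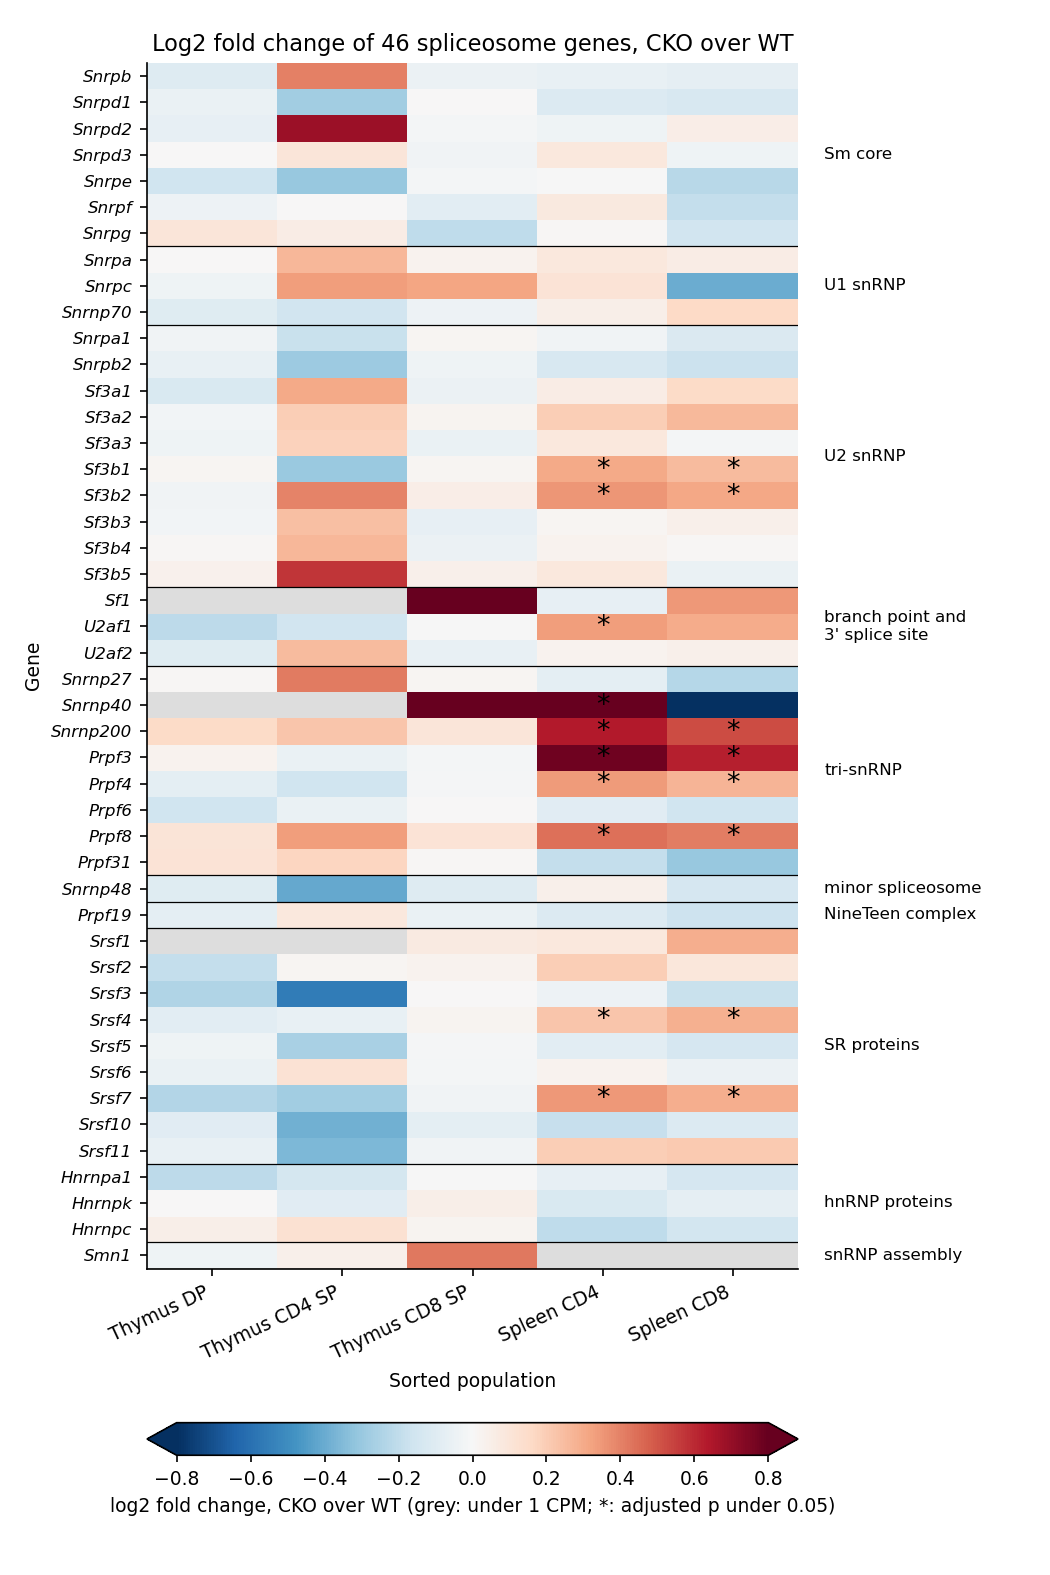
Log2 fold change of each of the 46 genes (rows, grouped by role) in the 5 sorted populations (columns), CKO over WT with 3 libraries per genotype. Red is higher and blue lower in CKO, the colour scale ends at 0.8 in either direction, grey marks a mean under 1 CPM and an asterisk an adjusted p under 0.05; all 18 asterisks lie in the spleen columns.

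The Sm core genes answer whether the transcripts of the methylated ring proteins differ when the enzyme's own transcript is reduced. Snrpb, which encodes SmB, stood at 141, 150 and 160 CPM in the WT libraries of spleen CD4 and at 137, 149 and 147 CPM in CKO. The groups overlapped, with a log2 fold change of -0.06 ± 0.07 (95% interval -0.21 to 0.09, adjusted p = 0.620, edgeR). In spleen CD8 it stood at 177, 155 and 169 CPM in WT and at 155, 160 and 161 CPM in CKO. Here too the libraries overlapped (log2 -0.07 ± 0.07, interval -0.23 to 0.08). Snrpd1, the gene of SmD1, had 30.3, 24.8 and 26.5 CPM in WT and 22.6, 27.8 and 25.3 CPM in CKO spleen CD4 cells (log2 -0.11 ± 0.11), and in spleen CD8 the estimate was -0.13 ± 0.10. Snrpd3, the gene of SmD3, had 49.9, 51.4 and 51.5 CPM in WT and 51.0, 52.9 and 58.5 CPM in CKO spleen CD4 cells (log2 0.09 ± 0.08), and in spleen CD8 the estimate was -0.03 ± 0.08. Snrpd1 had 31.4 ± 1.20 CPM in WT and 28.7 ± 2.77 CPM in CKO spleen CD8 cells, with overlap, and Snrpd3 had 63.2, 55.7 and 58.9 against 60.7, 53.2 and 59.8 CPM. For these 3 genes the 95% intervals in both spleen populations lay between -0.35 and 0.25, and differences within that range could not be resolved with these libraries.

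The genes of the 3 methylated Sm proteins did not pass in the thymus either. Snrpb had 356, 342 and 350 CPM in WT and 336, 331 and 346 CPM in CKO thymus CD8 SP cells, a log2 fold change of -0.05 ± 0.04 (interval -0.14 to 0.04, adjusted p = 0.737). Snrpd1 had 104, 99.2 and 98.2 CPM in WT and 100, 104 and 97.7 CPM in CKO (log2 0.00 ± 0.05), and Snrpd3 had 114, 111 and 105 against 108, 105 and 111 CPM (log2 -0.03 ± 0.05). The genotypes overlapped for all 3 genes in these cells. In thymus DP Snrpb had 256, 270 and 301 CPM in WT and 256, 245 and 270 CPM in CKO (log2 -0.10 ± 0.07). Snrpd1 had 37.1, 43.9 and 44.9 against 40.5, 37.7 and 42.8 CPM (log2 -0.05 ± 0.10), and Snrpd3 had 98.3, 94.6 and 116 against 104, 95.7 and 111 CPM (log2 0.00 ± 0.09). All 3 again overlapped. Thymus CD4 SP bounded them far less tightly. Snrpb there had 542 CPM in CKO 14 against 232 and 227 CPM in the other CKO libraries and 229 to 265 CPM in WT, which gave 0.40 ± 0.37 (interval -0.47 to 1.28). Without CKO 14 the estimate was -0.14. Snrpd1 there had 35.7, 44.3 and 43.1 CPM in WT and 33.7, 29.4 and 38.2 CPM in CKO (log2 -0.28 ± 0.21), and Snrpd3 had 98.3, 101 and 115 against 98.8, 124 and 114 CPM (log2 0.10 ± 0.19).

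Of the other 4 ring genes, Snrpe and Snrpf were lower in CKO spleen CD8 cells at an unadjusted p under 0.05 but did not pass. Snrpe had 49.8, 45.5 and 46.7 CPM in WT and 39.7, 43.1 and 38.9 CPM in CKO, with no overlap between genotypes (log2 -0.22 ± 0.08, adjusted p = 0.0946). Snrpf had 39.2, 38.9 and 42.2 CPM in WT and 35.3, 36.1 and 34.0 CPM in CKO, again without overlap (log2 -0.19 ± 0.08, adjusted p = 0.150). In spleen CD4 the same genes stood at -0.00 ± 0.09 and 0.08 ± 0.10. The difference between the populations did not pass for Snrpf (log2 -0.27 ± 0.13, adjusted p = 0.413, edgeR) or Snrpe (-0.22 ± 0.12, adjusted p = 0.486, edgeR). Both are short, with 861 exon bases in Snrpf and 1372 in Snrpe. All tested genes under 3000 exon bases had a median log2 fold change of -0.06 in spleen CD8 and -0.01 in spleen CD4. The part of exon length in these values was not tested. Snrpd2 had estimates of -0.04 ± 0.09 in spleen CD4 and 0.05 ± 0.10 in spleen CD8. Snrpg, in thymus CD8 SP, had 36.8, 36.0 and 35.4 CPM in WT and 32.0, 30.8 and 31.1 CPM in CKO without overlap, at -0.20 ± 0.06 (adjusted p = 0.281), the smallest p among the members of that population.

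**Figure D2:**
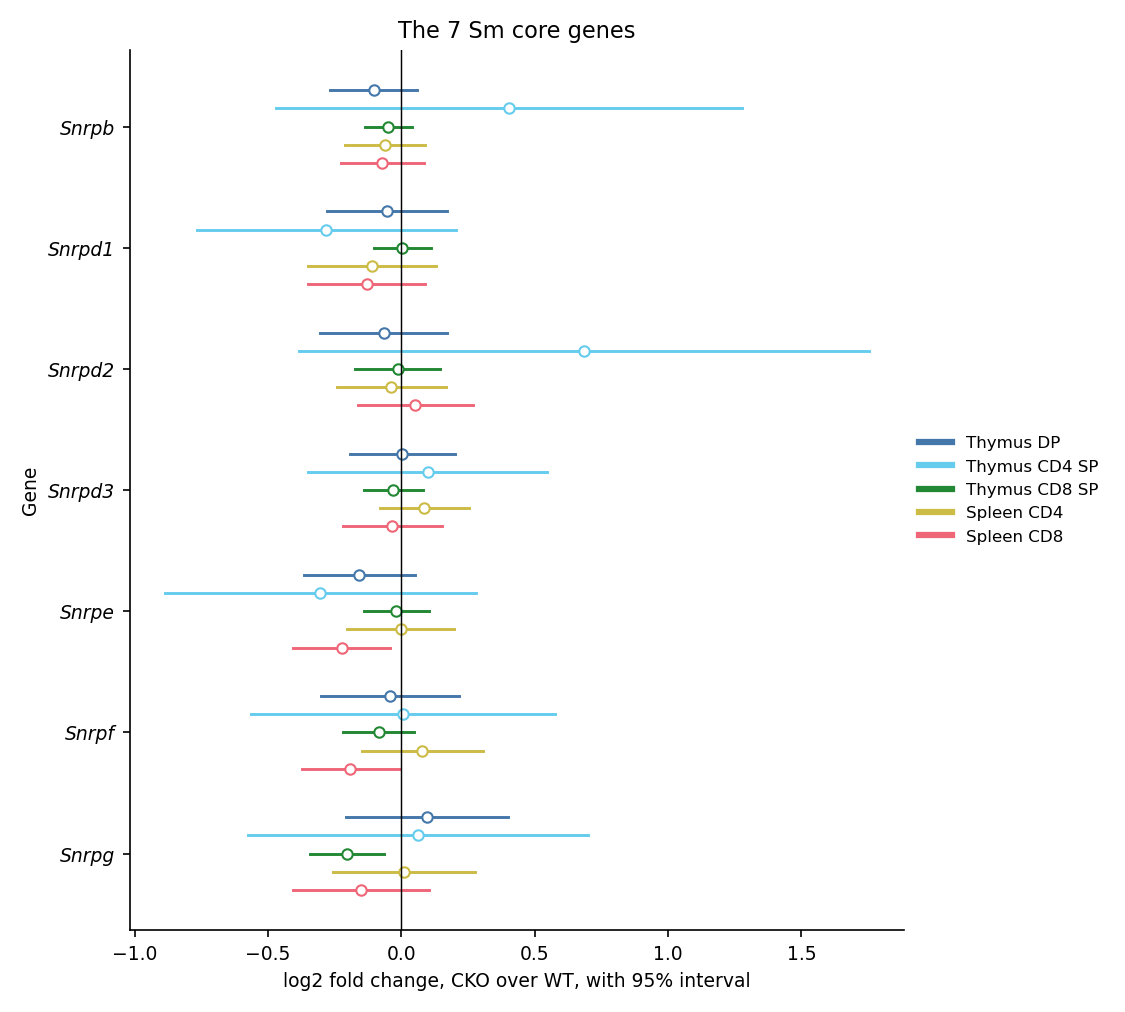
Log2 fold change (horizontal axis, CKO over WT) of the 7 Sm core genes in the 5 populations, with 95% intervals from edgeR's fit, 3 libraries per genotype; open points did not pass an adjusted p of 0.05. No point is filled, and the widest intervals are those of thymus CD4 SP, such as -0.47 to 1.28 for Snrpb.

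Per length of exon, Snrpb had the highest counts of the Sm core genes in WT cells of all 5 populations, from 76.1 ± 4.92 CPM per kb in spleen CD4 to 177 ± 3.71 CPM per kb in thymus CD8 SP. In spleen CD4 Snrpf (35.4 ± 4.82) and Snrpe (28.1 ± 3.06) followed, with overlapping SDs. Snrpd3 (14.8 ± 0.264), Snrpd1 (13.3 ± 1.37), Snrpg (11.6 ± 1.17) and Snrpd2 (9.18 ± 0.456) came after them, all in CPM per kb. Of these 4, the ranges of mean ± SD overlapped between Snrpd3 and Snrpd1 and between Snrpd1 and Snrpg. In spleen CD8 the same 4 genes stood at 17.2 ± 1.09, 15.3 ± 0.584, 15.7 ± 1.86 and 10.4 ± 0.324 CPM per kb. Exon lengths were taken from GENCODE M21, and the annotation behind the counts is not given in the sources used here. Snrpd1, Snrpd2, Snrpe, Snrpf and Snrpg share near-identical sequence with other genes, and Snrpb and Snrpd3 do not. Of the 861 exon bases of Snrpf, 567 overlap Ccdc38 on the opposite strand. Reads left uncounted for this reason would lower the level of a gene, and their part in this order was not tested.

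The tri-snRNP held the members with the largest differences in the spleen. In spleen CD4, where 14292 genes were tested and 8.53% of them were higher and 5.63% lower in CKO, 10 of 45 members were higher (22.2%) and 0 lower, and DESeq2 also called 10 members higher and 0 lower, against 9.5% and 6.54% of all genes. At an unadjusted p under 0.05, 13 members had a positive and 3 a negative estimate, against 15.7% and 12.9% of all genes. Of the 8 tri-snRNP genes 5 were higher. Among genes with a mean of 25 CPM or more, a level chosen after the values were seen, 12.4% of all genes tested were higher and 7.97% lower, and 9 of the 38 members at that level were higher and 0 lower. The median log2 fold change was 0.04 over the 45 members and -0.01 over all genes tested.

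Prpf3, which encodes a U4/U6 snRNP protein, had 51.5, 52.5 and 52.4 CPM in WT and 83.7, 97.1 and 87.2 CPM in CKO spleen CD4 cells. The lowest CKO library lay well above the highest WT library, and the log2 fold change was 0.78 ± 0.07 (adjusted p = 5.57e-05, edgeR). Its partner Prpf4 had 51.5, 51.7 and 48.8 CPM in WT and 60.1, 67.9 and 64.4 CPM in CKO, also without overlap (log2 0.34 ± 0.07, adjusted p = 0.00993; 0.0541 without WT 71). Snrnp200, the gene of the helicase that unwinds U4 from U6, had 374, 379 and 340 CPM in WT and 520, 621 and 557 CPM in CKO. This was a log2 fold change of 0.64 ± 0.08 (adjusted p = 3.05e-04), again with all CKO libraries on top. Prpf8, which encodes the scaffold of the catalytic core, had 680, 685 and 623 CPM in WT and 818, 1000 and 881 CPM in CKO (log2 0.44 ± 0.08, adjusted p = 0.00389).

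Snrnp40, which encodes a U5 snRNP protein, rose more than any other member in spleen CD4 but from a very low level. It had 36, 34 and 28 counts in the WT libraries (1.39, 1.30 and 1.04 CPM) and 101, 132 and 189 counts in CKO (3.67, 5.30 and 7.73 CPM). The groups did not overlap, and the log2 fold change was 2.15 ± 0.31 (adjusted p = 8.50e-04, edgeR). Snrnp40 had 0 counts in every thymus DP and CD4 SP library. How far its low level comes from the counting was not tested. The 3 remaining tri-snRNP genes did not rise. Prpf31, the gene of a U4/U6 protein, had 49.5, 44.4 and 53.3 CPM in WT and 44.2, 42.1 and 42.8 CPM in CKO (log2 -0.19 ± 0.08, adjusted p = 0.164). Prpf6, which bridges the U5 and U4/U6 snRNPs, stood at -0.09 ± 0.07, and Snrnp27 at -0.08 ± 0.15.

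In spleen CD8, 9.83% of the 13917 genes tested were higher in CKO and 6.22% lower, and 8 of 45 members were higher (17.8%) and 0 lower. At an unadjusted p under 0.05, 13 members had a positive and 6 a negative estimate, against 16.5% and 13.7% of all genes. DESeq2 called 9 members higher and 0 lower, against 10.7% and 7.58%. Of genes at 25 CPM or more, 11.1% were higher and 8.89% lower, and 8 of 39 members were higher and 0 lower. Prpf3 had 52.5, 58.0 and 52.8 CPM in WT and 72.8, 93.6 and 85.0 CPM in CKO (log2 0.62 ± 0.10, adjusted p = 0.00179). Prpf4 went from 53.3 ± 2.64 to 64.2 ± 2.73 CPM (log2 0.27 ± 0.08, adjusted p = 0.0364), a call lost in 6 of 10 alternatives: with no filter on low counts (adjusted p = 0.0542) and without any 1 of WT 67, WT 70, WT 71, CKO 68 and CKO 72 (up to 0.160). For both genes the genotypes did not overlap.

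Snrnp200 had 374, 379 and 363 CPM in WT and 503, 586 and 513 CPM in CKO spleen CD8 cells (log2 0.52 ± 0.07, adjusted p = 8.73e-04). Prpf8 had 617, 639 and 656 CPM in WT and 792, 928 and 814 CPM in CKO (log2 0.41 ± 0.07, adjusted p = 0.00358). Neither gene overlapped between genotypes. Prpf31 lay lower in CKO without overlap, at 67.2, 53.1 and 49.8 against 46.7, 44.9 and 46.5 CPM, and did not pass (log2 -0.30 ± 0.11, adjusted p = 0.0868). It did pass in 2 of the alternatives, with no filter on low counts (adjusted p = 0.0231) and with all 12 spleen libraries in the fit (adjusted p = 0.0482). Prpf6 stood at -0.16 ± 0.07 (adjusted p = 0.161) and Snrnp27 at -0.23 ± 0.13 (adjusted p = 0.253).

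On GRCm38 these genes lie apart from each other, with Prpf3 at chr3:95830124-95855885, Snrnp200 at chr2:127208386-127240451, Prpf8 at chr11:75486816-75509449, Prpf4 at chr4:62408797-62426990 and Sf3b1 at chr1:54985169-55027481. All 8 members that rose in spleen CD8 were among the 10 that rose in spleen CD4. This is 100% of the former and 80% of the latter. Of the other spliceosome genes described below, 11 rose in spleen CD4 and 9 in spleen CD8, with 7 in common (63.6% and 77.8%). Of those that fell, 10 in spleen CD4 and 4 in spleen CD8, 3 were in common (30% and 75%). The share of all genes called in both populations is not given here, so whether the members stand apart cannot be told. Both populations came from the same 6 mice, so these calls are not independent. Among the CKO mice, mouse 65 had the lowest level of all 8 genes in both populations. Mouse 68 had the highest level of 7 of the 8 in spleen CD4 and of 8 in spleen CD8, and it also had the least Prmt5 of the CKO mice, at 19.1 CPM in CD4 and 29.1 CPM in CD8 cells. Mouse 65 did not have the most, with 24.2 and 35.0 CPM against 24.3 and 41.6 CPM in mouse 72. In CKO spleen CD4 many members that did not pass were also highest in mouse 68, among them Srsf5 (1193 CPM), Snrnp70 (799 CPM), Srsf6 (636 CPM) and Srsf11 (566 CPM). Many others were highest in mouse 72, among them Srsf2 (436 CPM) and Srsf3 (107 CPM), or in mouse 65, as was Sf3a1 (130 CPM). A highest level in mouse 68 was thus not particular to the 8 genes. Over the genes tested, deviations of the same CKO mouse from its group mean correlated between CD4 and CD8 cells (r from 0.357 to 0.488). The share of all genes in this order is not given here, and a link of the order to Prmt5 was not tested.

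**Figure D3:**
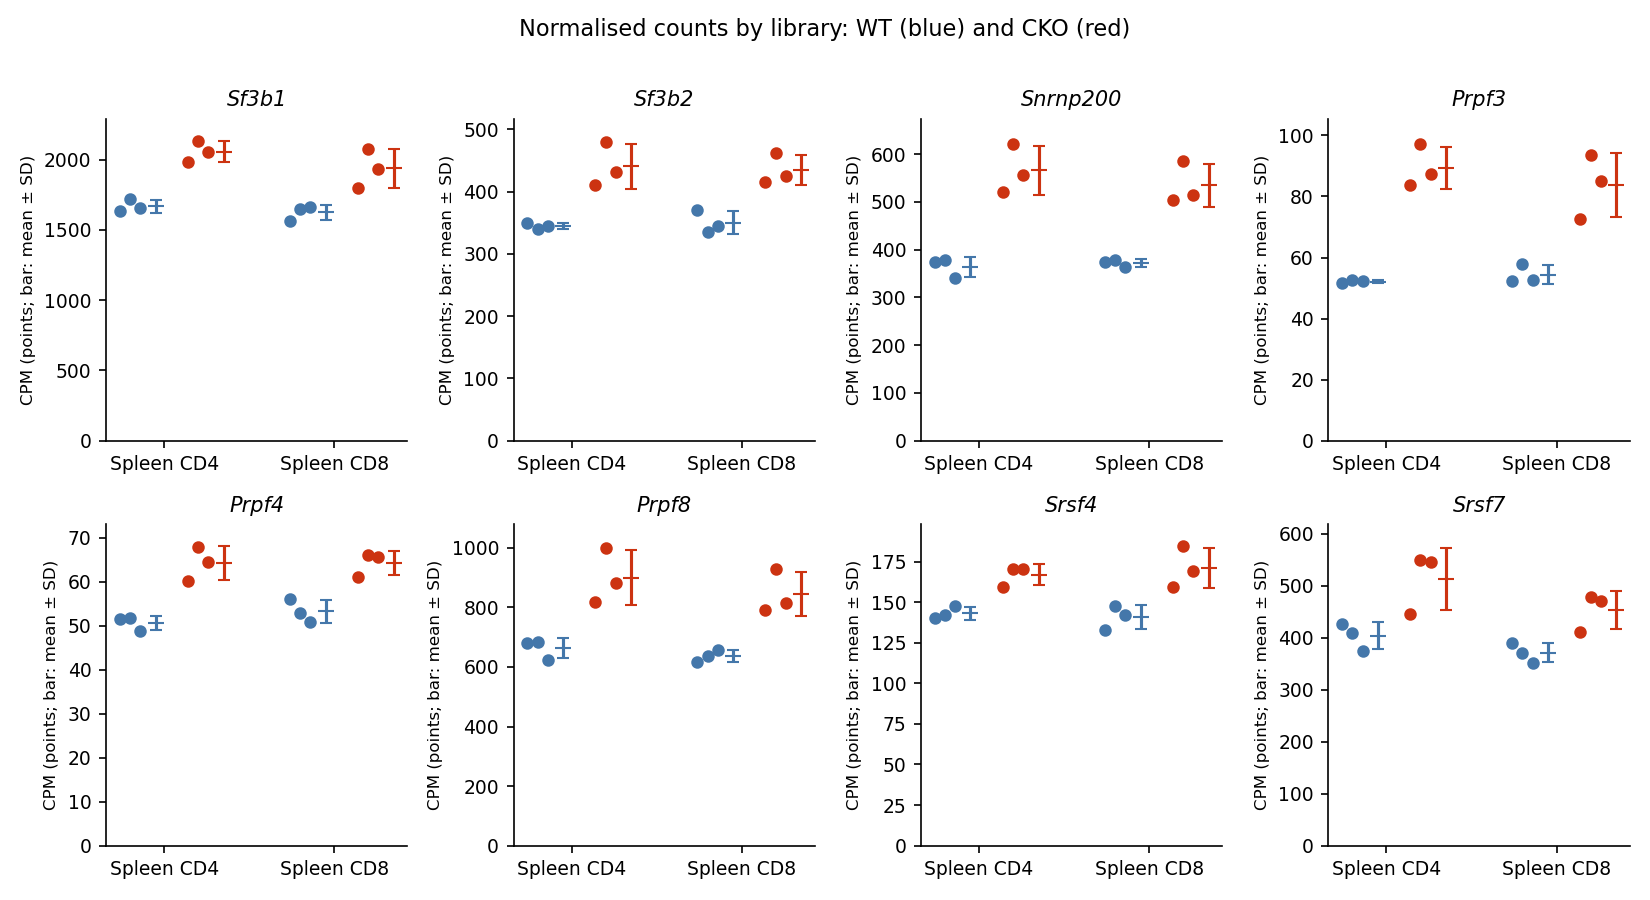
CPM of the 8 members that were higher in CKO in both spleen populations, 1 panel per gene; each point is a library, WT blue and CKO red, with the mean and SD of 3 libraries beside the points. In every panel and population the 3 red points lie above the 3 blue ones, for example at 83.7 to 97.1 against 51.5 to 52.5 CPM for Prpf3 in spleen CD4.

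To show the start regions of tri-snRNP genes that moved together, 3 promoter windows are printed here, each from 150 bases before to 30 bases after a RefSeq transcript start (180 bases, GRCm38.p6, 5′ to 3′ on the gene's strand). They belong to Snrnp200 (chr2:127208236-127208415, plus strand), Prpf4 (chr4:62408633-62408812, plus strand) and Prpf8 (chr11:75486627-75486806, plus strand). Capitals mark the ETS core CCGGAA or its reverse complement.
Snrnp200: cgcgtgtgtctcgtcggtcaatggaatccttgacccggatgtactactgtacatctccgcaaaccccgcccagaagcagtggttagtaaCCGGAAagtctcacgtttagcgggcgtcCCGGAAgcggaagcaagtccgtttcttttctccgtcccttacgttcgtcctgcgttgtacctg
Prpf4: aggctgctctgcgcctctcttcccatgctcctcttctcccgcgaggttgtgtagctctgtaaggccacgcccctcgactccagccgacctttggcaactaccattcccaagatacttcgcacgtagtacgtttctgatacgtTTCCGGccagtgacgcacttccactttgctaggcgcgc
Prpf8: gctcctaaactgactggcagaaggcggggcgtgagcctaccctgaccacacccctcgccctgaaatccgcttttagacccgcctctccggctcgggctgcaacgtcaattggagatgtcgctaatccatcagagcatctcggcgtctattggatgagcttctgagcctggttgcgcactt
The Snrnp200 window holds 2 such cores, the Prpf4 window 1 and the Prpf8 window 0. RefSeq promoters were matched by symbol for 40 of the 46 genes. The ETS core was present in 21 of these 40 (52.5%), against 25.3% of the 9852 genes tested in spleen CD4 that had a promoter entry and 13.1% of all 27025 genes with one. Of the 8 members higher in both spleen populations 4 had it (Prpf3, Prpf4, Sf3b2 and Snrnp200). This is near the share of the 40 members, so the core does not set the 8 apart from the other members. It was 1 of 7 motifs searched on both strands after the values were seen. The others, with their share of the 40 members and of the genes tested in spleen CD4, were the NRF1 motif (25% and 9.50%), the SP1 motif GGGCGG (47.5% and 60.0%), the NFY motif CCAAT (37.5% and 33.8%), the E-box CACGTG (5.0% and 8.70%), the TATA motif TATAAA (7.5% and 4.60%) and the YY1 motif AAGATGGC (0% and 3.21%). Matches of different motifs were counted separately and may overlap. A match is a description of the sequence and says nothing of a bound factor.

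The U2 snRNP and the factors around the branch point showed rises in only part of each complex. Sf3b1, which encodes the SF3B subunit that clamps the branch point, had 1632, 1721 and 1655 CPM in WT and 1985, 2131 and 2052 CPM in CKO spleen CD4 cells (log2 0.30 ± 0.06, adjusted p = 0.00871). Sf3b2 had 350, 340 and 344 CPM in WT and 410, 480 and 432 CPM in CKO (log2 0.35 ± 0.07, adjusted p = 0.00628). In spleen CD8 these genes gave 0.25 ± 0.07 (adjusted p = 0.0263) and 0.31 ± 0.07 (adjusted p = 0.0121). All 4 comparisons were without overlap. In spleen CD8 the Sf3b1 call was lost without any 1 of WT 67, WT 70, WT 71, CKO 68 and CKO 72 (adjusted p up to 0.0954, edgeR) and the Sf3b2 call without WT 70 or WT 71 (up to 0.0684). The other SF3B genes measured were close to 0, with Sf3b3 at 0.02 ± 0.06 and 0.04 ± 0.06, Sf3b4 at 0.03 ± 0.08 and 0.01 ± 0.09 and Sf3b5 at 0.08 ± 0.11 and -0.05 ± 0.13 in spleen CD4 and CD8. Of the 10 U2 snRNP genes 2 passed in each spleen population.

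Sf3a2, a gene of the SF3A part, lay above WT in all CKO spleen libraries without passing (log2 0.20 ± 0.07, adjusted p = 0.0741 in CD4; 0.26 ± 0.08, adjusted p = 0.0620 in CD8). In spleen CD8 it did pass with no filter on low counts (adjusted p = 0.0489), with 12 libraries in the fit (0.0254) and without CKO 65 (0.0257). U2af1, whose product reads the AG at the 3′ splice site, had 74.3, 63.5 and 70.8 CPM in WT and 78.5, 97.5 and 87.5 CPM in CKO spleen CD4 cells. It passed there (log2 0.34 ± 0.09, adjusted p = 0.0271, but up to 0.126 without any 1 of WT 70, WT 71, CKO 68 and CKO 72) and did not in spleen CD8 (0.30 ± 0.10, adjusted p = 0.0659), where DESeq2 called it (adjusted p = 0.0437), as did edgeR with no filter on low counts (0.0197) or without CKO 65 (0.0209). The difference between the populations did not pass for U2af1 (log2 -0.04 ± 0.14, adjusted p = 0.960). U2af2, the gene of its partner, stood at 0.03 ± 0.07 and 0.04 ± 0.06. Sf1, the gene of the branch point binding protein, had 14.1 to 16.8 CPM over all 6 spleen CD4 libraries, and in spleen CD8 it stood at 0.35 ± 0.16 (adjusted p = 0.183). The U1 snRNP genes Snrpa, Snrpc and Snrnp70 did not pass; Snrnp70 had 672, 696 and 679 CPM in WT and 753, 795 and 742 CPM in CKO spleen CD8 cells (log2 0.16 ± 0.06, adjusted p = 0.0917).

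Among the 9 SR protein genes Srsf4 and Srsf7 rose in both spleen populations and the other 7 did not pass. Srsf7 had 427, 410 and 375 CPM in WT and 445, 549 and 546 CPM in CKO spleen CD4 cells (log2 0.35 ± 0.09, adjusted p = 0.0210), and in spleen CD8 it had 389, 371 and 352 against 411, 479 and 470 CPM (log2 0.29 ± 0.08, adjusted p = 0.0257). Srsf4 had 140, 142 and 148 CPM in WT and 159, 170 and 171 CPM in CKO spleen CD4 cells (log2 0.22 ± 0.06, adjusted p = 0.0352), and gave 0.28 ± 0.08 in spleen CD8 (adjusted p = 0.0296). Neither gene overlapped between genotypes. Neither call held throughout when libraries were left out 1 at a time. In each spleen population Srsf4 no longer passed without any 1 of WT 67, WT 70, WT 71, CKO 68 and CKO 72 (adjusted p up to 0.126, edgeR). Srsf7 no longer passed in either without any 1 of WT 70, WT 71, CKO 68 and CKO 72 (up to 0.125, edgeR). The estimates stayed positive in every alternative, from 0.20 to 0.32 for Srsf4 and from 0.24 to 0.44 for Srsf7. The SR genes that did not pass ran from -0.18 for Srsf10 to 0.20 for Srsf2 and Srsf11 in spleen CD4 and from -0.18 for Srsf3 to 0.29 for Srsf1 in spleen CD8. Srsf5, the most abundant of the SR genes per kb of exon, at 284 ± 16.0 CPM per kb in WT spleen CD4, stood at -0.08 ± 0.08 and -0.13 ± 0.10. The hnRNP genes Hnrnpa1, Hnrnpk and Hnrnpc had negative estimates in both, from -0.20 to -0.07, and none passed. Snrnp48 of the minor spliceosome (0.04 ± 0.07 and -0.13 ± 0.08) and Prpf19 of the PRP19 complex (-0.11 ± 0.06 and -0.17 ± 0.07) did not pass either.

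Counted by library, 13 of 45 members in spleen CD4 had all 3 CKO libraries above all 3 WT libraries and 5 had them below, against 17.3% and 15.6% of all genes tested. In spleen CD8 these numbers were 14 and 12 of 45, against 18.4% and 16.8%. Without WT 71 the number of members higher in spleen CD4 was 6, and without WT 67, WT 70, WT 71, CKO 68 or CKO 72 the number in spleen CD8 was 5, 3, 3, 4 and 4. The number of all genes called higher also fell, from 1219 to 706 in spleen CD4 without WT 71. In spleen CD8 it fell from 1368 to 844, 939, 853, 1255 and 967 in the same runs. Prpf3, Snrnp200 and Prpf8 passed in both spleen populations in each alternative run, as did Snrnp40, Sf3b1 and Sf3b2 in spleen CD4.

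Other measures moved with the genotype in these libraries, and their part in the members' differences was not tested. The share of genes called higher grew with exon length, from 5.65% under 3000 bases to 11.4% at 6000 bases or more in spleen CD4 and from 6.11% to 14.3% in spleen CD8. The share called lower also grew in spleen CD4, from 3.77% to 8.10%, and shrank in spleen CD8, from 7.92% to 5.07%. The members that rose had a median exon length of 5666 bases in spleen CD4 and 6246.5 bases in spleen CD8, against 3859 bases for the other members in each. Among 18 cell cycle genes 14 were higher in CKO spleen CD8 cells, where their summed level ran from 628 to 673 CPM in WT and from 876 to 1115 CPM in CKO, and 0 were higher in spleen CD4. All 9 myeloid markers were higher in CKO spleen CD4 cells (80.6 to 119 CPM summed in WT, 138 to 307 CPM in CKO) and 4 of 9 in spleen CD8 (24.2 to 35.3 against 49.8 to 76.2 CPM). Of 4 NK cell markers 3 were higher and 0 lower in spleen CD8 (104 to 115 against 171 to 263 CPM). In spleen CD4 1 was higher and 1 lower, and the sums overlapped (37.1 to 39.1 against 33.6 to 48.1 CPM). The 9 handling stress genes, of which 7 were tested, did not overlap in their sum in spleen CD8 (3984 to 4357 CPM in WT, 3246 to 3858 CPM in CKO, 0 higher and 1 lower) and did in spleen CD4 (4712 to 5317 against 4373 to 5624 CPM, 1 higher and 1 lower). The T cell markers gave 2 of 9 higher in CD4 and 1 of 9 in CD8, and B cell markers 0 of 7 in each.

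Whether the genotype effect differed between spleen CD8 and CD4 cells was tested as an interaction over 12 libraries of the same mice. Of 14958 genes 1.81% had a more positive effect in CD8 and 0.749% a more negative one, and of 45 members 1 was called, Snrnp40, with a difference of -3.03 ± 0.64 (interval -4.39 to -1.66, adjusted p = 0.0188). In spleen CD8 Snrnp40 had 25, 99 and 33 counts in WT and 25, 23 and 37 counts in CKO, so that WT 70 stood apart. The interaction was lost without the CD4 library of WT 71 (adjusted p = 0.0537) or of CKO 72 (adjusted p = 0.0567). For the 8 genes higher in both populations the differences were small and did not pass. They ran from -0.16 ± 0.12 for Prpf3 (interval -0.42 to 0.10) to 0.06 ± 0.09 for Srsf4 (interval -0.14 to 0.26).

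In the thymus no member passed. In thymus DP 0.0172% of the 11634 genes tested were higher and 0.0086% lower, and 0 of 43 members were called by edgeR or by DESeq2, which called 0.163% of all genes. At an unadjusted p under 0.05 there were 6 members, all with negative estimates (Hnrnpa1, Srsf2, Srsf7, Srsf3, U2af1 and Prpf6), against 3.23% of all genes with a positive and 3.83% with a negative estimate. Srsf2 had 547, 572 and 576 CPM in WT and 501, 469 and 517 CPM in CKO (log2 -0.19 ± 0.07, adjusted p = 0.660). Srsf7 had 459, 419 and 406 CPM in WT and 365, 329 and 399 CPM in CKO (log2 -0.23 ± 0.08), and Hnrnpa1 had 295, 269 and 261 against 232, 229 and 252 CPM (log2 -0.21 ± 0.07). All 3 genes had their CKO libraries below their WT libraries, as did 8 of the 43 members against 5.9% of all genes tested; 1 member lay above, against 6.31%. All 8 SR genes measured had negative estimates, from -0.24 to -0.03, and 30 of the 43 members did, with a median of -0.04 against 0.00 over all genes.

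Thymus CD4 SP gave little resolution, and its CKO libraries differed among themselves. The median coefficient of variation of the 43 members was 22.8% in CKO and 9.30% in WT. None of the 11839 genes tested was called in either direction (0%), and of the members 0 passed, also 0 with DESeq2, which called 0.00845% of all genes. At an unadjusted p under 0.05 there was 1 member, Srsf3, against 1.27% of all genes lower and 1.32% higher. Srsf3 had 325, 314 and 295 CPM in WT and 163, 208 and 262 CPM in CKO (log2 -0.56 ± 0.23, adjusted p = 0.958). CKO 14, which also had the most Prmt5 of the CKO libraries, stood apart in many members, with 253 CPM of Sf3b1 against 917 to 1203 CPM in the other 5 libraries, 24.6 CPM of Srsf10 against 126 to 186 CPM, and 162 CPM of Snrpd2 against 47.4 to 62.2 CPM. With 2 members above and 2 below without overlap, against 5.09% and 4.95% of all genes, the members lay near the shares of all genes. The change of the effect from DP to CD4 SP was tested over 12 libraries and called 0 of 43 members and 0% of 12216 genes in either direction, with 0 members at an unadjusted p under 0.05 (2.15% of all genes) and 0 by DESeq2 (0% of all genes). The smallest p belonged to Snrpd2 (0.71 ± 0.48), Sf3a1 (0.39 ± 0.27) and Sf3b3 (0.24 ± 0.17), all with adjusted p = 0.983.

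Thymus CD8 SP had the tightest libraries, with a median coefficient of variation over the 46 members of 2.93% in WT and 2.85% in CKO. Of 14911 genes 0.0335% were higher and 0.0805% lower, and 0 members passed with edgeR or with DESeq2, which called 1.41% of all genes. At an unadjusted p under 0.05 there were 2 members higher and 1 lower, against 5.01% and 5.37% of all genes. Prpf8 had 976, 966 and 1014 CPM in WT and 1078, 1073 and 1043 CPM in CKO (log2 0.11 ± 0.04, adjusted p = 0.311). Snrnp200 had 507, 522 and 539 CPM in WT and 551, 568 and 560 CPM in CKO (log2 0.10 ± 0.04, adjusted p = 0.414). Both were without overlap, as were 2 members above and 2 below in all, against 7.74% and 7.68% of genes tested. In these cells 1 library carried an outlying value in each of 2 members, with 262 counts of Snrnp40 in CKO 1 against 42 to 55 in the others, and 2458 counts of Sf1 in CKO 3 against 526 to 662. Both passed only with no filter on low counts.

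Across the 5 populations Prpf8 and Snrnp200 were the members whose estimates were positive throughout among the 8 that rose in both spleen populations. The plot of these genes by population shows the thymus values nearer to 0, at 0.11 ± 0.09, 0.33 ± 0.20 and 0.11 ± 0.04 for Prpf8 and 0.15 ± 0.08, 0.22 ± 0.18 and 0.10 ± 0.04 for Snrnp200 in DP, CD4 SP and CD8 SP. Prpf3, which had the highest estimate of these 8 genes in both spleen populations, stood at 0.03 ± 0.07, -0.05 ± 0.23 and -0.02 ± 0.05 in the thymus. Its interval in thymus CD8 SP ran from -0.12 to 0.09. Thymus and spleen lie in different count tables and different mice, so the difference between them was not tested. Prmt5 itself fell less in thymus CD8 SP (-0.31) than in the other populations.

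**Figure D4:**
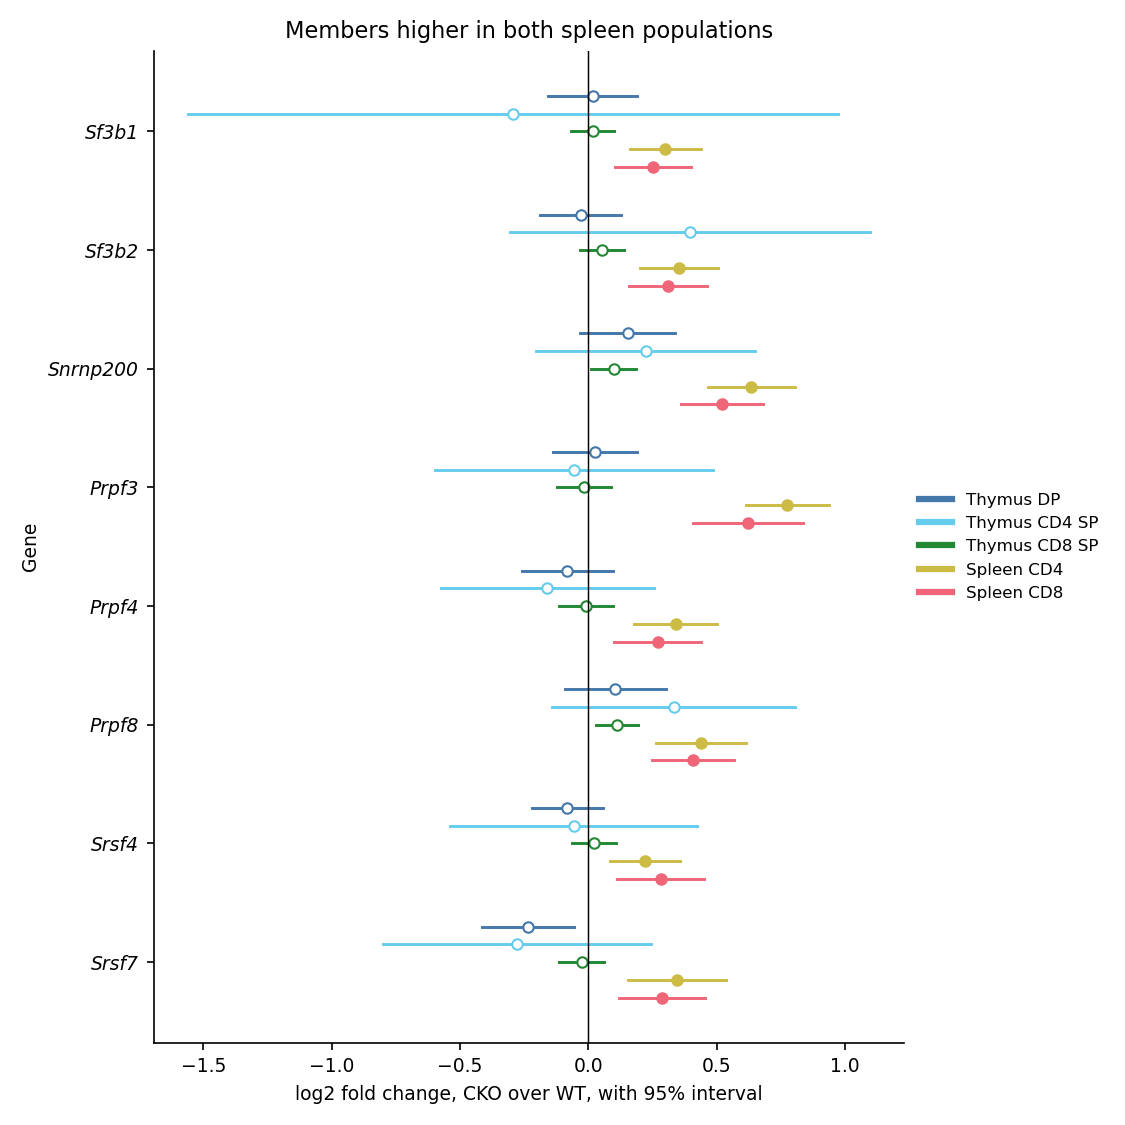
Log2 fold change (horizontal axis, CKO over WT) with 95% intervals from edgeR's fit of the 8 members higher in both spleen populations, shown for all 5 populations with 3 libraries per genotype; filled points passed an adjusted p of 0.05. Only the spleen points are filled, and in thymus CD8 SP the 8 estimates lie between -0.03 and 0.11.

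The wider spliceosome showed calls in both directions in the spleen, from a list of 140 further genes, 139 of them in the tables. In spleen CD4 11 of 137 tested were higher and 10 lower (8.03% and 7.30%), and in spleen CD8 9 and 4 of 137 (6.57% and 2.92%), against 8.53% and 5.63% of all genes in CD4 and 9.83% and 6.22% in CD8. The 6 of smallest p in spleen CD4 were Luc7l, a U1-associated gene (log2 0.77 ± 0.07), Hnrnph3 (0.93 ± 0.08), the tri-snRNP helicase gene Ddx23 (0.67 ± 0.08), the SR protein kinase gene Srpk1 (1.05 ± 0.15), Prpf39 (0.45 ± 0.07) and, lower, the tri-snRNP gene Prpf38a (-0.54 ± 0.09). In spleen CD8 they were Luc7l (0.63 ± 0.06), Hnrnph3 (0.89 ± 0.09), Ddx23 (0.62 ± 0.09), Pnn (0.28 ± 0.06) and, lower, Prpf38a (-0.40 ± 0.09) and Lsm8 (-0.43 ± 0.11). Ddx23 thus rose beside Snrnp200 and Prpf8, while Prpf38a fell. Of the genes for snRNP assembly and Sm adaptors 0 of 12 were higher and 3 lower in spleen CD4 (Gemin8, Phax and Strap), and 0 in either direction in spleen CD8. In the thymus 0 of 135, 135 and 138 tested genes of this list passed in DP, CD4 SP and CD8 SP, with 1 higher and 8 lower, 0 and 1, and 3 and 9 at an unadjusted p under 0.05, against the shares of all genes given with each population.

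Some members are read with care because other loci share their sequence. By a search of GENCODE M21 transcripts, 21 of the 46 have another gene with a match of at least 200 bases at 95% identity or more, among them Srsf4 with an antisense transcript and U2af1, Sf3b2 and Snrpd1 with pseudogenes or other transcripts. Prpf3, Prpf4, Prpf8, Snrnp200, Snrnp40, Sf3b1 and Srsf7 have none. The libraries mark strand, but the strand setting of the counting is not given in the sources used here, so reads of Srsf4 and of the antisense gene Gm12992, which share 1532 exon bases, cannot be told apart. Levels of Sf1, Snrnp40, Srsf1, Snrpc and Smn1 differ greatly between the tables, for example 64.9 CPM of Snrpc in WT thymus DP and 1.95 CPM in WT spleen CD4. The ring genes Snrpf and Snrpg differ too. In WT thymus DP, thymus CD8 SP and spleen CD4, Snrpf had 12.5, 86.0 and 30.5 CPM and Snrpg 7.33, 36.1 and 18.2 CPM. The reason for these differences was not tested.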

How the data were processed

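Poly(A) RNA of sorted cells was sequenced, and the library kit keeps the strand, per the labels' protocols. The authors deposited whole-number counts per gene in 3 tables; per the submitters' processing notes, HISAT2, HTSeq and GRCm38 were used. For the versions, the annotation and the strand setting, the entry is: not given in the sources used here. Genes were kept by filterByExpr, scaled by TMM and tested with edgeR 4.0.16 (R 4.3.3, quasi-likelihood test, adjusted p under 0.05), in a fit of the 6 libraries of a population or, for interactions, 12. CPM used TMM-scaled library sizes. Totals per library ran from 11865646 to 35353441 counts. Intervals are 95%. P-values measure the spread between mice of 1 series. Alternatives were DESeq2 1.42.0, its size factors, no filter, 12 libraries, each library left out and replicate blocks. The fits were tested on simulated data.

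Values were named for Prmt5, for Snrpb, Snrpd1 and Snrpd3, for members called (at most 12, else the 3 of smallest p), for SR and hnRNP genes as ranges, and for at most 6 other spliceosome genes. Further members are named where a complex or an outlying library is described, chosen after their values were seen. The members and lists were chosen with earlier results of these data known. The 25 CPM level, exon length bins, motifs, promoters printed and the order of mice were chosen after seeing the data. Exon lengths and copies came from GENCODE M21 (GRCm38), and promoters were credited to RefSeq.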

Additional observations from a re-analysis of the deposited data

Results flagged for a closer look

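Snrnp40 had a genotype effect that differed between spleen populations, at -3.03 (log2, CD8 minus CD4, edgeR's quasi-likelihood test, adjusted p = 0.0188), and the test no longer passed without the CD4 library of WT 71 or CKO 72.

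In 5 other members all 3 CKO libraries lay on 1 side of all 3 WT libraries in 1 population and on the opposite side in another. Of the 42 members at 1 CPM or more in all 5 populations this is 11.9%, and 11.9% of all 9445 genes at that level did the same (1127 genes), so the members do not stand apart. These differences between populations were not tested. Snrpg lay above WT in thymus DP (log2 0.10) and below it in thymus CD8 SP (-0.20). U2af1 lay above WT in spleen CD4 (0.34) and spleen CD8 (0.30) and below it in thymus DP (-0.21). Prpf4 lay above WT in spleen CD4 (0.34) and spleen CD8 (0.27) and below it in thymus CD4 SP (-0.16). Srsf2 lay above WT in spleen CD4 (0.20) and spleen CD8 (0.09) and below it in thymus DP (-0.19). Srsf7 lay above WT in spleen CD4 (0.35) and spleen CD8 (0.29) and below it in thymus DP (-0.23).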

How the results depend on the processing

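Of the values recomputed under the alternatives, 478 kept direction and side of the threshold, 46 kept direction only and 10 changed sign. With no filter on low counts 2 members were higher in thymus CD8 SP (Sf1 and Snrnp40) and 1 was lower in spleen CD8 (Prpf31), which was also the 1 lower with 12 libraries. With each library left out in turn, the members higher ranged from 6 to 12 in spleen CD4 and from 3 to 11 in spleen CD8, the members lower from 0 to 1 in spleen CD8 and from 0 to 1 in the spleen interaction, and the other counts were 0. Sign changes came only from leaving out a library, with ranges of -0.06 to 0.10 for Snrpd3 in thymus DP, -0.08 to 0.02 for Snrpd3 in spleen CD8, -0.02 to 0.03 for Snrpd1 in thymus CD8 SP, and -0.14 to 0.62 for Snrpb and -0.04 to 0.96 for Snrpd2 in thymus CD4 SP. Snrpd3 in thymus DP was -0.03, -0.06 and -0.05 (without WT 15, WT 18 or CKO 23) and in spleen CD8 0.01 and 0.02 (without WT 67 or CKO 68), Snrpd1 in thymus CD8 SP was -0.01, -0.01 and -0.02 (without WT 2, WT 3 or CKO 2), and Snrpb and Snrpd2 in thymus CD4 SP were -0.14 and -0.04 without CKO 14. The cause of these changes was not tested. With the replicate block 0 members were higher and 0 lower in thymus CD8 SP. There same-numbered WT and CKO libraries correlated at 0.0529 to 0.145, above all others, at -0.128 to 0.00445. Whether the numbers mark pairs or a shared batch was not tested, and the main fit did not use them. With mouse as replicate block the spleen interaction had 0 members higher and 1 lower (672 and 411 genes in all, against 271 and 112), and the thymus interaction 0 and 0. Few counts limit the precision for Snrnp40, Snrpc and Smn1 in the spleen and thymus CD8 SP tables.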
